A study of Dunaliella salina with 18 samples.

Results

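The 122 most abundant transcripts of Dunaliella salina CCAP 19/3, a green alga that tolerates high salt, were examined in RNA-seq libraries made after reciprocal changes of salinity. They are all transcripts whose plain mean over the 18 libraries was at least 1000 abundance units, and they make up 0.282% of the 43236 assembled transcripts listed. They were selected on the level itself, so their levels, shares and ranks are given as a description without a test. The tests below concern the changes over time and between the arms. The 6 groups are strain CCAP 19/3 cultures of the H2L arm at 0h, 4h and 24h and of the L2H arm at 0h, 4h and 24h, with 3 libraries each. The arms are named after the sample titles, because the titles and the condition field state opposite directions of the salinity change, and neither arm is assigned a direction here. Where the libraries of a group came from is not stated beyond cells of an algal culture, so the p-values measure the spread between libraries, which may be technical.

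Dunaliella salina lacks a rigid cell wall and adjusts to the salt concentration around it by making or removing glycerol, which balances the osmotic pressure inside the cell. In green algae the most abundant messenger RNAs generally encode proteins of photosynthesis and of the translation machinery, which the cell needs in large amounts at all times. Because an RNA-seq library samples a fixed number of molecules, a few very abundant transcripts can fill a large part of it, and a change in their share moves the relative level of all others. None of the identifiers in the table carries a gene name, and 0 of them matched the available reference gene table of strain CCAP 19/18. The members are therefore described by identifier and level, with no function assigned. In such bulk cultures, fewer cells of a kind and less of an RNA per cell cannot be told apart.

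The values are deposited abundances that are already scaled, on a scale that is either TPM or FPKM and is not stated. The library totals, each the sum of the values listed for that library, were 749880 to 842410 units. In every group the titles of libraries 1 and 2 end in the same tag, and that of library 3 ends in another. The tag of the 24h libraries also differs from that of the 0h and 4h libraries, so tag and time cannot be told apart at 24h. The meaning of the tags is not stated. Library 3 of L2H 0h and of L2H 4h stand apart from libraries 1 and 2 of their groups. The counts of calls and the share differences that rest on them are given below with and without them. Most other values are given only with them.

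The threshold cut through a continuous range of levels. The members with the lowest means were c44910_g1_i1 with 1007, c41226_g2_i1 with 1008 and c41799_g1_i1 with 1021. Those just below it were c38003_g1_i1 with 993, c41226_g1_i1 with 985 and c66869_g1_i1 with 979, and their library values overlapped those of the members just above. The member means reached 15430, with a median of 1764, and 45 of the 122 had a mean of at least 2000. In all, 77 members reached 1000 in each of the 18 libraries and 90 did so in the mean of each of the 6 groups. Of the other 32 members, 14 reached it in 5 groups, 7 in 4 groups, 6 in 3 groups and 5 in 2 groups, so these entered the list partly through the groups in which they were high. A rule on the median over libraries would have kept 111 of the 122. All 122 passed the filter on low values, and none was listed at 0 in any library. Among the identifiers, 6 members share their first part with another member (c45813_g4_i1 and c45813_g5_i1, c43952_g1_i1 and c43952_g2_i1, c44730_g1_i1 and c44730_g2_i1). Near-identical sequences could divide reads between the transcripts of such a pair, so the split of level within a pair is uncertain.

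A large part of the summed abundance listed for every library came from these few transcripts. In H2L the members held 35.2%, 35.6% and 33.2% of the library total at 0h, 34.4%, 33.8% and 37.9% at 4h, and 34.8%, 34.8% and 35.6% at 24h. The L2H libraries gave 35.9%, 34.2% and 31.5% at 0h, 29.1%, 28.8% and 34.2% at 4h, and 32.9%, 31.5% and 33.4% at 24h. The H2L groups overlapped one another throughout, while L2H 4h libraries 1 and 2 held the lowest shares of all 18 libraries. The mean share was 35.4 ± 2.21% at 4h and 34.6 ± 1.31% at 0h in H2L, and 30.7 ± 3.03% at 4h and 33.9 ± 2.22% at 0h in L2H (SD, n = 3 each). At 24h it was 35.1 ± 0.489% in H2L and 32.6 ± 0.954% in L2H.

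None of these group differences passed a test. The share was 0.744 percentage points higher at 4h than at 0h in H2L (exact permutation test, two-sided, p = 0.8) and 0.421 points higher at 24h (exact p = 0.8). In L2H the difference was -3.17 points at 4h (exact p = 0.2) and -1.26 points at 24h (exact p = 0.5). At 0h H2L exceeded L2H by 0.782 points (exact p = 0.7). All 5 p-values were 0.8 after Benjamini-Hochberg adjustment, and 3 libraries against 3 cannot give a p below 0.1. The sign of the 3 small differences depended on single libraries. The H2L difference at 4h was -0.523 points without library 3 of H2L 4h and -0.000349 without that of H2L 0h, and that at 24h was -0.323 without H2L 0h library 3. The arm difference at 0h was -0.404 points without L2H 0h library 3. Without library 3 of L2H 0h and of L2H 4h, the L2H difference was -6.11 points at 4h and -2.44 points at 24h.

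**Figure D1:**
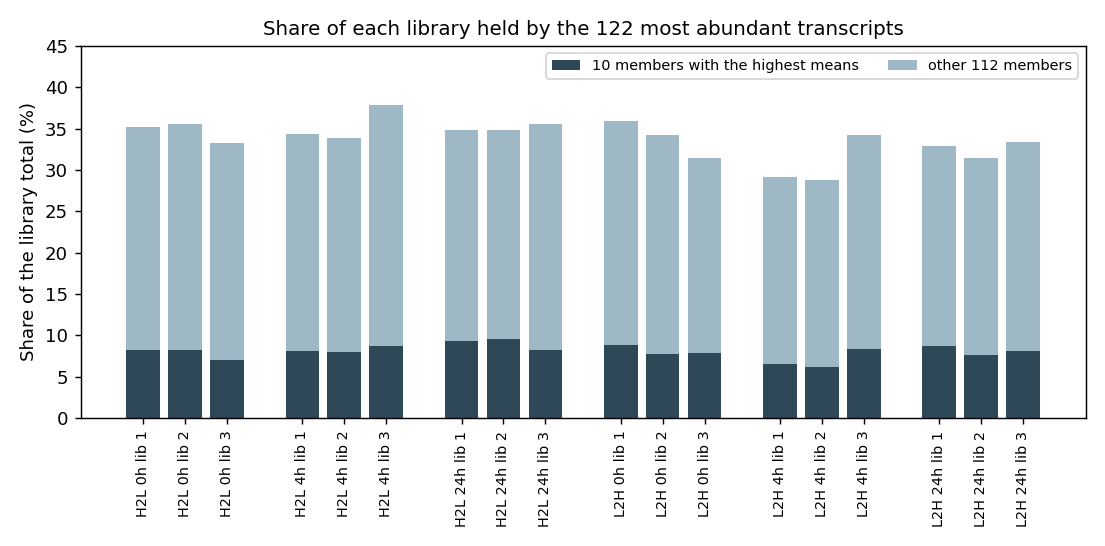
Share of each library's total (%, y axis) held by the 10 members with the highest means (dark) and by the other 112 members (light), 1 bar per library in 6 groups of 3 (x axis). The full bars reach 28.8% to 37.9%, lowest in L2H 4h libraries 1 and 2, and the dark parts reach 6.19% to 9.49%.

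The share was spread over many members. The 10 members with the highest means held 6.19% to 9.49% of a library, with a median of 8.15%, and the highest member of a library held 1.14% to 2.98%. Between 30 and 37 members made up 50% of the members' total in a library. For 50% of the whole library total, 280 to 555 transcripts were needed. In each library 102 to 114 of the members were among that library's own 122 highest transcripts, and 94 to 116 of them were at 1000 or more there. With the threshold at 500 the list would hold 212 transcripts and 37.7% to 46.1% of a library, and at 2000 it would hold 45 transcripts and 16.4% to 22.5%.

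A single transcript led most libraries. c46710_g2_i7 ranked first in 15 of the 18 libraries, and c45813_g4_i1 ranked first in the other 3, which were the 3 H2L 4h libraries. The level of c46710_g2_i7 was 12785, 12151 and 10443 at 0h, 11334, 11339.6 and 12096 at 4h and 20357, 21417 and 16649.7 at 24h in H2L. In L2H it was 23546, 21133 and 18087 at 0h, 8657, 8610.2 and 18686 at 4h and 20869.8, 16279.5 and 13297 at 24h. All H2L 24h libraries lay above all H2L 0h and 4h libraries, and L2H 4h libraries 1 and 2 lay far below L2H 4h library 3. The level of c45813_g4_i1 was 9959.8, 11349 and 6347 at 0h, 14414, 13012 and 14157 at 4h and 9984, 10365 and 4856 at 24h in H2L, against 5623, 5173 and 6932 at 0h, 7095, 6109 and 7202 at 4h and 6351, 5168 and 8269 at 24h in L2H. Its H2L 4h libraries were the highest and did not overlap any other group. Neither of these 2 transcripts was called in any change over time.

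The next ranks were held by c41313_g1_i1 with a mean of 8039 and c37670_g1_i1 with 6546, which stayed between ranks 2 and 8 in every library. c51419_g1_i1, the fifth by its mean of 4477, divided the arms. Its group means in H2L were 6314 ± 766 at 0h, 7503 ± 566 at 4h and 4399 ± 180 at 24h, and in L2H 2883 ± 720, 2558 ± 256 and 3204 ± 265 at the same times (SD, n = 3 each). Every H2L library lay above every L2H library, and its rank ran from 3 to 35. The 4 transcripts that followed, c39916_g1_i1, c41581_g1_i2, c31480_g1_i1 and c36231_g1_i1, had means of 4367, 4356, 4306 and 4290. Their library values overlapped almost entirely, so their order does not differ beyond the spread of libraries. c44122_g2_i1, the tenth with a mean of 3916, was the least steady of the 10. It stood at 474, 920.4 and 3109 in the L2H 4h libraries, against 3540.0, 5107 and 2805 at L2H 0h, and its rank ran from 3 to 210. In the means of the 6 groups, 6 transcripts were in the 10 highest of every group, and 16 were in the 10 highest of at least 1 group.

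**Figure D2:**
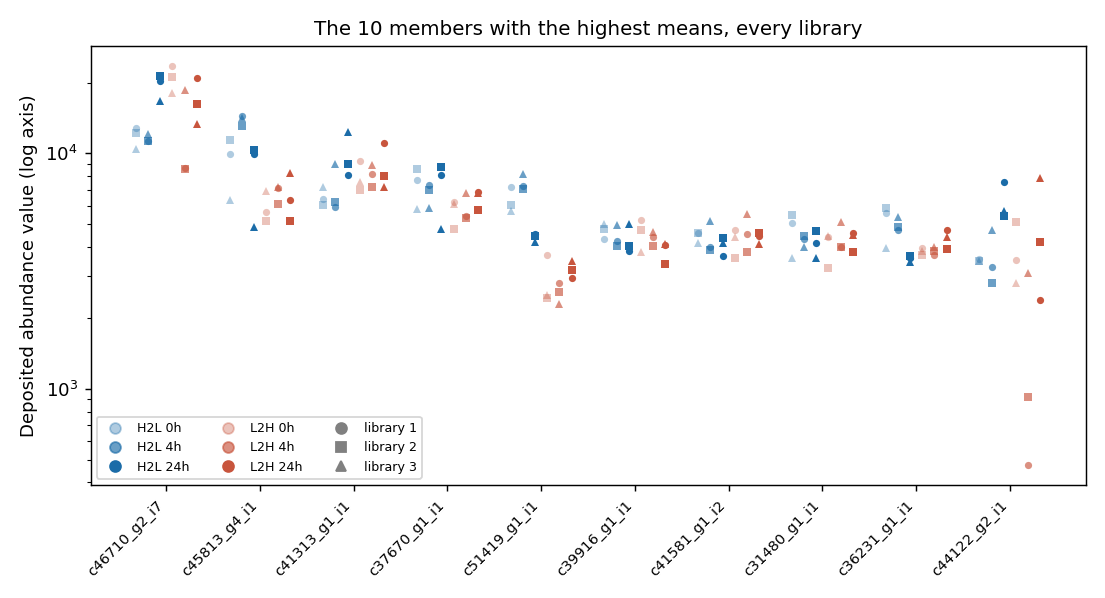
Abundance value (log axis, deposited units) of the 10 members with the highest means (x axis) in each of the 18 libraries, with H2L in blue, L2H in red, later times darker and marker shapes for libraries 1 to 3. c46710_g2_i7 is highest in 15 libraries, c51419_g1_i1 separates the arms, and c44122_g2_i1 stands at 474 and 920.4 in 2 L2H 4h libraries.

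Most members stayed within a narrow range of levels. The highest library exceeded the lowest less than 2-fold for 70 members, 2- to 4-fold for 38, 4- to 10-fold for 6 and more than 10-fold for 8, with a median ratio of 1.89. The steadiest were c29639_g1_i1 with a ratio of 1.31, c46215_g1_i1 with 1.33, c43952_g1_i1 with 1.35, c54582_g1_i1 with 1.36 and c37080_g1_i1 with 1.39. c46215_g1_i1 stood at 3475, 3221 and 3299 at 0h, 3329, 3272 and 3139.6 at 4h and 3081, 2913 and 3787 at 24h in H2L, and at 3461, 3494 and 2939, 3437, 3209.7 and 3399 and 3179, 3356 and 2841 at these times in L2H. Its 6 groups all overlapped. At the other end, the highest library exceeded the median library 14.7-fold for c66899_g1_i1, 13.2-fold for c30263_g2_i1, 5.83-fold for c39976_g1_i1, 2.89-fold for c30377_g2_i1 and 2.42-fold for c42071_g1_i1. The medians of these 5 were below 1000, so they met the threshold through the groups in which they were high. The SD within groups on the log2 scale had a median of 0.197 over the members and 0.321 over all 34166 transcripts tested, and it was 0.243 over the 747 transcripts with means from 100 to 1000. The SD between group means had medians of 0.228, 0.298 and 0.287 in the same order.

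The rank order of the members was compared between libraries with Spearman's rho over the 122 members, as a description, since members of a library share its preparation. Libraries 1 and 2 of a group gave 0.957 to 0.992. For 15 of the 18 libraries the most alike library was one of its own group. The exceptions were L2H 0h library 3 and L2H 4h library 3, which were most alike each other (0.976), and H2L 0h library 3, which was most alike H2L 4h library 3 (0.876). L2H 4h libraries 1 and 2 gave only 0.541 to 0.564 with L2H 0h libraries 1 and 2. In H2L the corresponding libraries at 4h and 0h gave 0.92 to 0.931, so the order was largely kept at 4h in libraries 1 and 2 there. Over all 9 library pairs of 4h with 0h, the rho was 0.773 to 0.931 in H2L and 0.541 to 0.976 in L2H.

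The order at H2L 24h lay nearer to L2H 0h and L2H 24h than to H2L 0h, but not nearer to L2H 4h. H2L 24h against L2H 0h gave a median rho of 0.833 over 9 library pairs (0.769 to 0.888), while H2L 24h against H2L 0h gave 0.715 (0.591 to 0.818). The arms at 0h gave 0.655 (0.489 to 0.784). H2L 24h against L2H 24h gave 0.869 (0.802 to 0.89), and against L2H 4h it gave 0.614 (0.548 to 0.827), with 14 members at least 2-fold apart. The median absolute difference of group means on the log2 scale was 0.152 between H2L 24h and L2H 0h and 0.297 between H2L 24h and H2L 0h, with 4 and 5 members at least 2-fold apart. These pairs share libraries with one another, and the 24h libraries carry their own title tags.

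**Figure D3:**
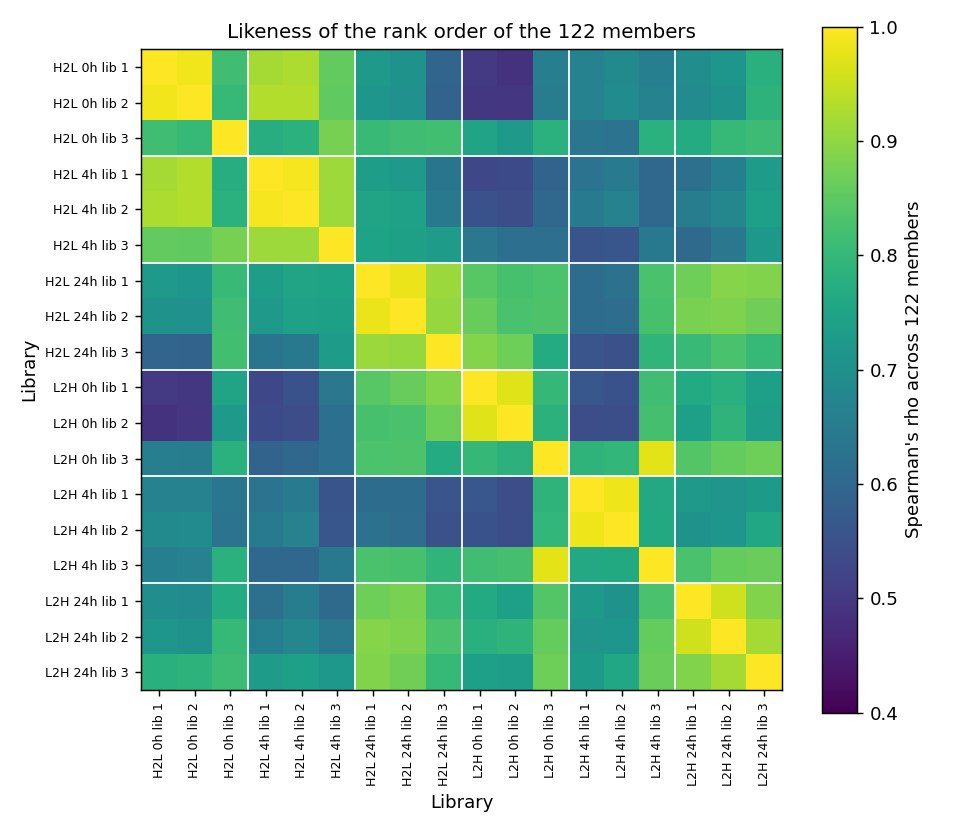
Spearman's rho across the 122 members (colour, 0.4 to 1) between every 2 of the 18 libraries (both axes), with white lines between groups. Libraries 1 and 2 of a group are alike at 0.957 or more, L2H 0h and 4h libraries 3 pair with each other at 0.976, and the H2L 24h block is lighter against L2H 0h than against H2L 0h.

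Few members passed the test in any change over time. Changes are differences of mean log2(value + 1), and a member was called where limma, fitted over all 34166 transcripts passing the filter, gave a two-sided Benjamini-Hochberg adjusted p under 0.05. In H2L 3 members (2.46%) were called higher and 3 (2.46%) lower at 4h than at 0h, against 6.49% and 5.52% of all transcripts tested. At 24h against 0h 0 were called higher and 4 (3.28%) lower, against 2.56% and 5.12% of all, and 16 and 20 members had an unadjusted p under 0.05 in these directions. At 24h against 4h 3 (2.46%) were higher and 8 (6.56%) lower, against 5.74% and 8.83%. In all 3 H2L comparisons the members' shares were below those of all transcripts in both directions. In L2H 4 (3.28%) were called higher and 2 (1.64%) lower at 4h than at 0h, against 1.17% and 1.07% of all. At 24h against 0h the counts were 1 and 1 (0.82% each), against 0.861% and 0.527%, and at 24h against 4h 1 (0.82%) higher and 2 (1.64%) lower, against 1.88% and 0.741%. With 122 members, these L2H shares rest on 1 to 4 transcripts. Of the 90 members at 1000 or more in every group mean, 1, 0 and 5 were called in the H2L comparisons and 0, 1 and 1 in the L2H comparisons, in the same order.

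In H2L at 4h, transcripts rising to the top of the list and transcripts leaving it were both seen. c66899_g1_i1 stood at 6787, 5631 and 8941 at 4h, against 4233, 3672 and 2921 at 0h. Its groups did not overlap, and it was the fourth highest transcript of the H2L 4h group mean. The change was 0.97 (SE 0.24). This transcript was called, but it met the threshold mainly through H2L 0h and 4h. A high level at 4h was thus in part fixed by the rule, and its rise is given as a description. c42071_g1_i1 stood at 1906, 1656 and 2316 at 4h and 1134, 1282 and 1021 at 0h (change 0.77, SE 0.24). It is among the members called, but it met the threshold mainly through H2L 4h. A higher level there was in part fixed by the rule, so its rise is given as a description. c45813_g5_i1, which shares the start of its identifier with c45813_g4_i1, stood at 3910.5, 3672 and 4075 at 4h and 2667, 2657 and 2587 at 0h (change 0.56, SE 0.17, limma adjusted p = 0.0392). These 2 rises were smaller, though again no library of 1 group fell within the range of the other.

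The falls at 4h in H2L were larger. c48029_g1_i1 was at 573, 596 and 712 at 4h, against 2519, 2388 and 2077 at 0h, and fell by 1.89 (SE 0.27, limma adjusted p = 0.000292). c49361_g1_i1 was at 353, 345 and 872 at 4h, against 1155, 1214 and 2120.4 at 0h, and fell by 1.60 (SE 0.35, limma adjusted p = 0.0071). In both groups the third library was the highest. c50236_g1_i5 was at 605, 614 and 1002 at 4h, against 1472, 1450.4 and 1534 at 0h, and fell by 1.04 (SE 0.24, limma adjusted p = 0.0094). All 3 falls took the transcript below 1000 in the group mean. The median change over the members was 0.035 and over all transcripts 0.038, and 3 members (2.46%) changed at least 2-fold, against 6.63% of all.

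The fall of c48029_g1_i1 was called under all 31 alternatives tried, 18 of which left out a single library. The count of 6 members became 3 without H2L 0h library 3 or without any of the 3 H2L 4h libraries. The adjusted p of c66899_g1_i1 was 0.0601 when library 3 of H2L 0h was left out and 0.0544 for that of H2L 4h, and that of c50236_g1_i5 was 0.0536 and 0.0507 without H2L 4h libraries 1 and 2. c45813_g5_i1 was lost without any of the 6 libraries of the comparison or without H2L 24h library 2 (adjusted p 0.0516 to 0.109), and c42071_g1_i1 in 13 of 18 such omissions (0.0524 to 0.131), which spared H2L 24h library 3, every L2H library 3 and L2H 24h library 1. With quantile normalization 1 of 5 calls was higher and with upper-quartile scaling 1 of 4.

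By 24h in H2L, c66899_g1_i1 and c30263_g2_i1 stood at their lowest H2L levels. c66899_g1_i1 was at 1076, 1353 and 1045, which was 1.63 lower than at 0h (SE 0.24) and 2.60 lower than at 4h (SE 0.24). c30263_g2_i1 was at 488, 609.7 and 553 at 24h, against 3099, 2793 and 4886 at 4h and 2239, 2362 and 2040.4 at 0h. It fell by 2.01 against 0h (SE 0.29) and by 2.67 against 4h (SE 0.29). For both transcripts no 24h library reached the lowest library at 0h or 4h. Both are among the members called, but they met the threshold mainly through H2L 0h and 4h, so a lower level at 24h was in part fixed by the rule, and their differences are given as a description. c39976_g1_i1 was at 362, 385 and 236 at 24h and 1292, 1363 and 651 at 0h, and it fell by 1.70 (SE 0.47, limma adjusted p = 0.0373). c48029_g1_i1 was at 1382, 1374 and 887 at 24h, which lay between its 4h and 0h levels, 0.96 below 0h (SE 0.27, limma adjusted p = 0.0393) and 0.93 above 4h (SE 0.27, adjusted p = 0.029).

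Other members moved between 4h and 24h in H2L. c49361_g1_i1 was at 1681, 1691 and 3502 at 24h, against 353, 345 and 872 at 4h, and rose by 2.18 (SE 0.35, limma adjusted p = 0.000646). c44388_g1_i1 was at 1725, 1794 and 2150.3 at 24h and 1166, 1218 and 1370.2 at 4h (change 0.59, SE 0.19, limma adjusted p = 0.0497). c42071_g1_i1 was at 1026, 947 and 819 at 24h, against 1906, 1656 and 2316 at 4h, and fell by 1.07 (SE 0.24). It was called lower, but it met the threshold mainly through H2L 4h. The fall was thus in part fixed by the rule and is given as a description. Of the remaining 5 members called lower, c51419_g1_i1, c45813_g5_i1, c60664_g2_i1, c512_g1_i1 and c43952_g2_i1, the changes were -0.77 to -0.54. The median change over the members was -0.139 at 24h against 0h and -0.155 at 24h against 4h, and over all transcripts -0.022 and -0.08. A positive change was seen in 33.6% and 34.4% of members, against 47.9% and 43.2% of all transcripts.

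The rise of c49361_g1_i1 was called under all 31 alternatives tried. With libraries 1 and 2 averaged, 0 members were called at 24h against 0h (5 at an unadjusted p under 0.05 in limma), and the adjusted p was 0.0909 for c66899_g1_i1 and 0.0912 for c30263_g2_i1. The count of 4 members at 24h against 0h became 2 without H2L 0h library 1 or 2 or any H2L 24h library, 14 without H2L 0h library 3 and 12 without L2H 4h library 3, which enters the shared estimate of the spread. The count of 11 at 24h against 4h became 5 and 7 when H2L 4h libraries 1 and 2 were left out, 5, 6 and 7 without H2L 24h libraries 1, 2 and 3, 17 without H2L 0h library 3 and 18 without L2H 4h library 3. c39976_g1_i1 was lost without H2L 0h library 1 or 2 or any H2L 24h library (adjusted p 0.0689 to 0.149), and the rise of c48029_g1_i1 without library 1 or 2 at either time (0.0856 to 0.105). The fall of c48029_g1_i1 against 0h was lost without H2L 0h library 1 or 2, any H2L 24h library, H2L 4h library 1 or L2H 24h library 2 (0.0502 to 0.148). c44388_g1_i1 was lost in 13 of 18 single omissions (0.0538 to 0.157), which were the 6 libraries of the comparison, H2L 0h, L2H 0h and L2H 24h libraries 1 and 2, and L2H 4h library 1. Without library 3 of L2H 0h and of L2H 4h, 20 members were called at 24h against 0h and 28 at 24h against 4h. With quantile normalization 4 of 8 calls against 0h and 7 of 15 against 4h were higher, and with upper-quartile scaling 3 of 6 against 4h.

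In L2H at 4h, the largest changes were carried by libraries 1 and 2. c39976_g1_i1 stood at 4361, 4416 and 3235 at 4h, against 519.8, 519 and 2887 at 0h (change 2.11, SE 0.47). It is among the members called, but it met the threshold mainly through L2H 4h. A higher level there was in part fixed by the rule, so this rise is given as a description. It was the ninth highest transcript of the L2H 4h group mean, and library 3 at 0h lay nearer to the 4h libraries than to libraries 1 and 2. c48029_g1_i1 stood at 3220.3, 2985 and 2296 at 4h, against 1017, 959.6 and 2238 at 0h (change 1.11, SE 0.27, limma adjusted p = 0.0439). c50236_g1_i5 stood at 2210.3, 2143 and 1597 at 4h, against 777, 834 and 1511 at 0h (change 0.98, SE 0.24, limma adjusted p = 0.0446). In all 3 the groups were just apart, and the third libraries of both times lay within a narrow range. c30377_g2_i1 was called higher with overlapping groups, at 2392, 2328 and 1437 at 4h and 495, 519 and 1510.2 at 0h (change 1.45, SE 0.32). It too met the threshold mainly through L2H 4h, so its rise was in part fixed by the rule and is given as a description.

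The 2 members called lower at 4h in L2H overlapped their 0h groups in the third library. c44752_g1_i1 was at 194, 199 and 1527 at 4h, against 2566, 2408 and 1282 at 0h, and fell by 2.35 (SE 0.54, limma adjusted p = 0.0403). c39956_g1_i1 was at 317, 376 and 1571 at 4h, against 2569, 3013 and 1362 at 0h, and fell by 1.94 (SE 0.42, limma adjusted p = 0.0384). Both were far below 1000 in libraries 1 and 2 only. Over the members the median change was -0.085, against -0.003 over all transcripts, and 30.3% of members had a positive change, against 49.2% of all. Of the members 14 (11.5%) changed at least 2-fold, against 3.94% of all transcripts, which is a description over libraries that differ as follows.

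Counted over libraries 1 and 2 alone, 5 members were at least 2-fold higher and 21 at least 2-fold lower at L2H 4h than at 0h. Between the third libraries 0 members were 2-fold higher and 0 lower. Of the 26 members, 3 moved the same way between the third libraries and 0 did so by 2-fold. In H2L the same count at 4h was 0 higher and 3 lower in libraries 1 and 2, all 3 with the same sign between the third libraries. At 24h against 0h, 6 H2L members changed at least 2-fold in libraries 1 and 2 and 6 of 6 moved the same way between the third libraries, while in L2H this held for 4 of 7. At 24h against 4h it held for 9 of 9 in H2L and 7 of 16 in L2H. 2 further members with over 10-fold ranges, chosen after their values were seen, were of the same kind. c48601_g4_i1 was at 206, 187 and 2061 at L2H 4h, against 2226, 2029 and 2039 at 0h. c50283_g6_i1 was at 486, 360.2 and 2136 at L2H 4h, against 2189.9, 2217 and 1641 at 0h.

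None of the 6 calls at L2H 4h withstood the omission of single libraries. The count was 0 without library 1 or 2 of any of the 6 groups, with 21 to 32 members at an unadjusted p under 0.05 in limma, while it was 22 without L2H 0h library 3 and 31 without L2H 4h library 3. For the 6 members the adjusted p without one of these 12 libraries was 0.051 to 0.253. Without L2H 24h library 3 it was 0.0505 for c48029_g1_i1 and 0.0501 for c50236_g1_i5, and without H2L 24h library 3 it was 0.0501 for c50236_g1_i5. Without library 3 of L2H 0h and of L2H 4h, 34 members were called, and the changes were 3.08 for c39976_g1_i1, 1.65 for c48029_g1_i1, 1.43 for c50236_g1_i5, 2.22 for c30377_g2_i1, -3.65 for c44752_g1_i1 and -3.01 for c39956_g1_i1. With the 2 groups alone in the fit the count was 0, with 14 members at an unadjusted p under 0.05. With quantile normalization 3 of 8 calls were higher.

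At 24h against 0h in L2H, 2 members were called. c48376_g4_i1 stood at 2177, 1771 and 1365 at 24h, against 806, 726 and 1099.5 at 0h (change 1.01, SE 0.24, limma adjusted p = 0.0498). c44730_g2_i1 stood at 1521, 1412 and 1635 at 24h, against 2519, 2315 and 2188 at 0h, and fell by 0.62 (SE 0.15, limma adjusted p = 0.0491). Neither pair of groups overlapped, and both p-values lay just under the threshold. The other 120 members were not called, with a median change of -0.05 over the members and 0.038 over all transcripts.

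Between 24h and 4h in L2H, 3 members were called. c39976_g1_i1 was at 692, 680.3 and 761 at 24h, against 4361, 4416 and 3235 at 4h, and fell by 2.48 (SE 0.47). As it met the threshold mainly through L2H 4h, this fall was in part fixed by the rule and is given as a description. c39956_g1_i1 was at 1885, 1728 and 1718 at 24h, against 317, 376 and 1571 at 4h, and rose by 1.63 (SE 0.42, limma adjusted p = 0.0482). c44730_g1_i1 was at 1505, 1544 and 2150.0 at 24h, against 2593, 3208 and 2741 at 4h, and fell by 0.73 (SE 0.18, limma adjusted p = 0.0438). The groups did not overlap for these 3, but for c39956_g1_i1 the third library at 4h lay near the 24h libraries. Of the members 68.9% had a positive change, against 53.8% of all transcripts.

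These counts also moved with single libraries. The 2 members at 24h against 0h became 0 without library 1 or 2 of any group (8 to 15 members at an unadjusted p under 0.05 in limma), 1 without H2L 4h library 3 or L2H 24h library 3, 9 without L2H 0h library 3 and 4 without L2H 4h library 3. The 3 members at 24h against 4h became 0 without L2H 4h or 24h library 1 or 2 (11 to 14 members at an unadjusted p under 0.05 in limma), 1 without library 1 or 2 of the other groups, 5 without L2H 0h library 3 and 19 without L2H 4h library 3. c39976_g1_i1 was lost without library 1 or 2 at either time (adjusted p 0.0511 to 0.0763). The calls of c48376_g4_i1, c44730_g2_i1, c39956_g1_i1 and c44730_g1_i1 were each lost without library 1 or 2 of any group (0.0511 to 0.259). Without L2H 24h library 3 the adjusted p was 0.054 for c48376_g4_i1, 0.0781 for c44730_g2_i1 and 0.0934 for c39956_g1_i1, and without library 3 of an H2L group it was 0.0509 for c44730_g2_i1 (4h) and 0.0532 to 0.0554 for c39956_g1_i1. Without library 3 of L2H 0h and of L2H 4h, 19 members were called against 0h and 25 against 4h, and the change of c39956_g1_i1 against 4h was 2.36. With quantile normalization and with upper-quartile scaling 0 members were called against 0h (18 and 11 at an unadjusted p under 0.05). Scaled to the total of the other transcripts, 0 of 1 call was higher against 0h. Against 4h 2 of 4, 0 of 2 and 1 of 2 calls were higher under these 3 settings.

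**Figure D4:**
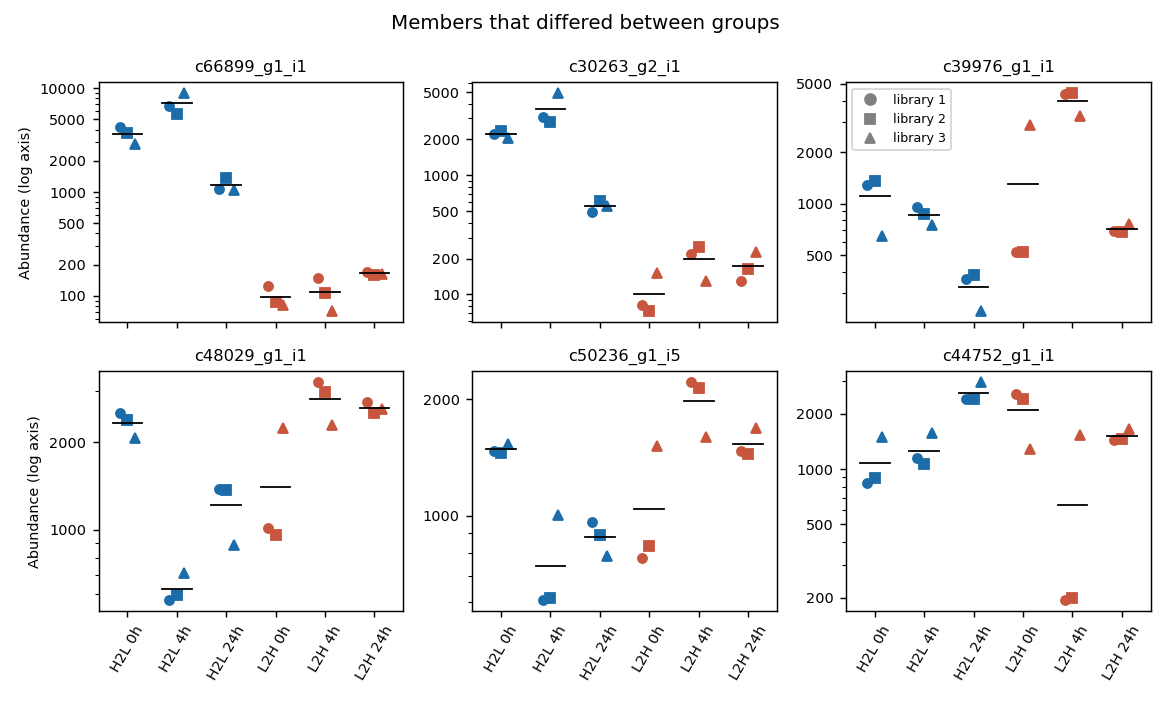
Abundance value (log axis, deposited units) of 6 members in the 6 groups (x axis), H2L in blue and L2H in red, with marker shapes for libraries 1 to 3 and horizontal bars for group means. c66899_g1_i1 and c30263_g2_i1 are high in H2L and low in L2H, and library 3 of L2H 0h and of L2H 4h lie apart from libraries 1 and 2 in the other 4.

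At 0h the arms differed most in transcripts that were abundant in H2L only. c66899_g1_i1 stood at 4233, 3672 and 2921 in H2L 0h, against 124, 86.6 and 81.4 in L2H 0h (change 5.21, SE 0.24). c30263_g2_i1 stood at 2239, 2362 and 2040.4 in H2L 0h, against 81.3, 72.5 and 150.4 in L2H 0h (change 4.51, SE 0.29). Their L2H levels stayed low at later times, 149, 107 and 71.7 at 4h and 171, 159 and 164 at 24h for c66899_g1_i1. For c30263_g2_i1 they were 218, 251 and 131 at 4h and 129, 163 and 228 at 24h. Both met the threshold through the H2L libraries, so a difference between the arms was in part fixed by the rule, and these values are a description.

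Other differences between the arms at 0h were smaller. c50377_g2_i1 stood at 4632, 4585 and 3574 in H2L 0h, against 1277, 1269.8 and 1593 in L2H 0h (change 1.63, SE 0.19, limma adjusted p = 6.05e-05). c42358_g2_i1 stood at 735, 800.1 and 900.2 in H2L 0h, against 2143, 2035 and 1344 in L2H 0h (change -1.16, SE 0.19, limma adjusted p = 0.00136). Its mean was 811.7 at H2L 0h and 1841 at L2H 0h. It thus entered the list partly through groups in which it was higher, L2H 0h among them. The pair c44730_g1_i1 and c44730_g2_i1 was lower in H2L, at 1567, 1673 and 2024 for the first in H2L 0h, against 2866, 2852 and 2717 in L2H 0h (change -0.69, SE 0.18, limma adjusted p = 0.0289). c44730_g2_i1 was at 1305, 1404 and 1674 in H2L 0h, against 2519, 2315 and 2188 in L2H 0h (change -0.69, SE 0.15, limma adjusted p = 0.00945). These 6 members were named from the calls without overlapping groups, so their lack of overlap was set by the choice.

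In all, 10 members (8.2%) were called higher and 4 (3.28%) lower in H2L than in L2H at 0h, against 4.54% and 3.33% of all transcripts. Of these 14, 8 were at 1000 or more in every group mean. The median difference was 0.193 over the members and 0.01 over all transcripts. The count became 6 and 5 without H2L 0h libraries 1 and 2, 28 without H2L 0h library 3, 9 and 8 without L2H 0h libraries 1 and 2, and 35 without library 3 of L2H 0h and of L2H 4h. c44730_g1_i1 was lost without library 1 or 2 of either group (adjusted p 0.0868 to 0.125) and c44730_g2_i1 without H2L 0h library 1 or 2 (0.0617 and 0.0505). With quantile normalization 8 of 20 calls were higher.

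The change from 0h was then compared between the arms by the difference of the 2 changes, H2L minus L2H. At 4h 2 members (1.64%) had a more positive change in H2L and 4 (3.28%) a more negative one, against 5.31% and 4.89% of all transcripts. c48029_g1_i1 differed most, by -3.005 (SE 0.38, limma adjusted p = 0.000377), since it fell in H2L and rose in L2H. It and c50236_g1_i5 were the only members called at 4h in both arms, 33.3% of the calls in each, and both were called in opposite directions. Their L2H changes were carried by libraries 1 and 2. Of all transcripts tested, those called in both arms at 4h were 2.88% of the H2L calls and 15.4% of the L2H calls. Most of these, 90 transcripts, were also called in opposite directions, so the opposite direction does not set the 2 members apart. At 24h 3 members (2.46%) had a more positive change in H2L and 5 (4.1%) a more negative one, against 2.24% and 4.2% of all, and no member was called in both arms. The changes had opposite sign in the arms for 71 of 122 members (58.2%) at 4h and 77 (63.1%) at 24h, against 53% and 53.9% of all transcripts. None of the 6 members called for the arm difference at 4h was at 1000 or more in every group mean, and 3 of the 8 at 24h were.

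The counts of arm differences varied with single libraries. The 6 at 4h became 3 without H2L 0h library 1 or 2, 2 without library 1 or 2 of H2L 4h, L2H 0h or L2H 4h, 14 without L2H 0h library 3 and 24 without L2H 4h library 3. The 8 at 24h became 5 without library 1 or 2 of H2L 0h or L2H 0h, 13 without H2L 0h library 3 and 17 without L2H 0h or 4h library 3. Without library 3 of L2H 0h and of L2H 4h, 32 members were called at each time. With upper-quartile scaling 1 of 5 calls at 4h and 3 of 6 at 24h were positive, and with quantile normalization 6 of 12 at 24h.

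**Figure D5:**
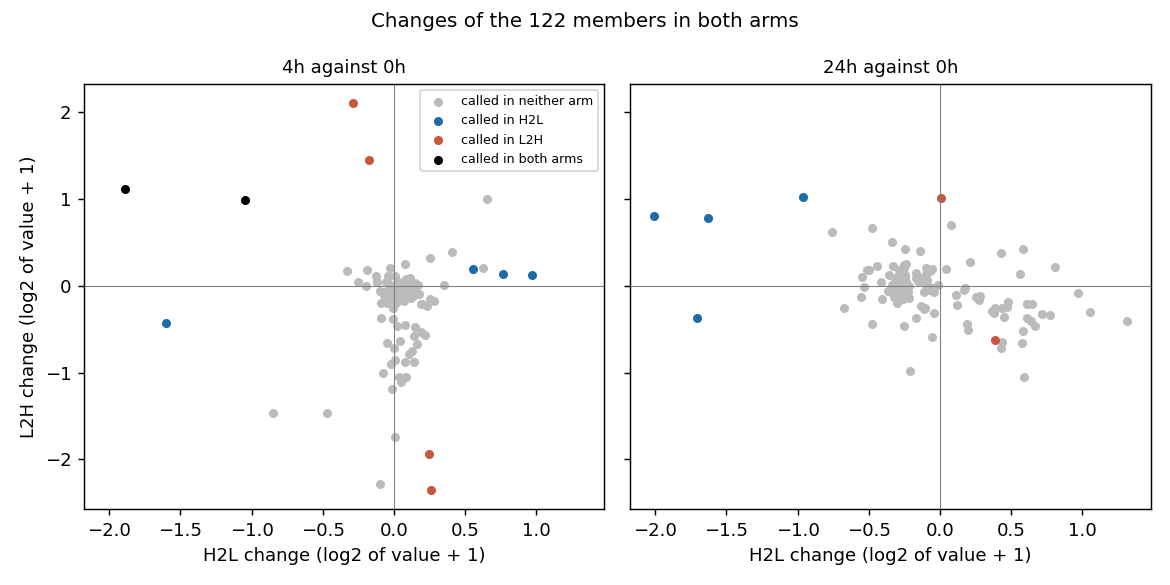
Change from 0h of each of the 122 members in H2L (x axis) and L2H (y axis), as a difference of mean log2(value + 1), at 4h (left) and 24h (right), coloured by the arm in which the member was called. At 4h c48029_g1_i1 and c50236_g1_i5 (black) are lower in H2L and higher in L2H, and at 24h no member is called in both arms.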

How the data were processed

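RNA of Dunaliella salina strain CCAP 19/3 was sequenced in 18 libraries. The submitters' processing notes name RSEM, Bowtie2 and FastQC, without versions. The authors deposited 1 table of signal (abundance) values on a scaled unit, either TPM or FPKM, and no source used here says which. These are not counts and whole reads could not be recovered from them (all values lay within 0.2 of whole multiples in 15.5% of 21349 low transcripts), so depth cannot be stated and counting intervals are left out. Columns were matched to samples by title, and 0 columns belonged to no sample.

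The 34166 of 43236 transcripts that reached 1 in 3 or more libraries were tested as log2(value + 1) with limma 3.58.1 in R 4.3.3, with 1 mean per group over all 18 libraries, a trend in the prior variance and two-sided Benjamini-Hochberg adjusted p-values over all tested transcripts. A log2(value + 1) change slightly understates that of low transcripts. The script was tested on simulated data. Shares were compared by exact permutation tests, and ranks by Spearman's rho, in Python 3.11.15.

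The members, comparisons and naming rule were chosen with earlier results of these data known. Named were the 10 highest members, the largest called changes of each sign per comparison without overlapping groups, the largest arm differences, the steadiest and most variable members and those beside the threshold. Members that this rule leaves out but the text names were added after their values were seen. Deviations of same-numbered libraries from their group means correlated at -0.182 to 0.259 over all comparisons, not all over 0.1, so the numbers were not treated as pairs. In H2L, however, library 3 gave 0.234 to 0.259 with the same number and at most -0.138 with the others. Counts with a replicate block are given in the last section.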

Additional observations from a re-analysis of the deposited data

Results flagged for a closer look

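A test of the difference between the arms set 14 results apart. Each is the change from 0h in H2L minus that in L2H on the log2(value + 1) scale, tested with limma over all transcripts. At 4h c48029_g1_i1 differed by -3.005 (SE 0.38, adjusted p = 0.000377) and c50236_g1_i5 by -2.027 (SE 0.34, adjusted p = 0.00214), with no overlap between 4h and 0h in either arm. c39976_g1_i1 differed by -2.393 (adjusted p = 0.0313) and c30377_g2_i1 by -1.63 (adjusted p = 0.0287). Both met the threshold mainly through L2H 4h, so these 2 differences were in part fixed by the rule. In the positive direction c44752_g1_i1 differed by 2.615 (adjusted p = 0.0398) and c39956_g1_i1 by 2.179 (adjusted p = 0.0279). The L2H changes of all 6 members were carried by libraries 1 and 2 and were small or opposite between the third libraries, where c48029_g1_i1 was at 2296 at 4h, against 2238 at 0h, and c50236_g1_i5 at 1597 at 4h, against 1511 at 0h. What sets these libraries apart was not tested.

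At 24h c30263_g2_i1 differed by -2.815 (adjusted p = 0.0012), c66899_g1_i1 by -2.413 (adjusted p = 0.000919), c48029_g1_i1 by -1.983 (adjusted p = 0.00703), c50236_g1_i5 by -1.381 (adjusted p = 0.0235) and c50377_g2_i1 by -1.144 (adjusted p = 0.0184). c44730_g1_i1 differed by 1.145 (adjusted p = 0.0155), c42358_g2_i1 by 1.08 (adjusted p = 0.0247) and c44730_g2_i1 by 1.009 (adjusted p = 0.0102). c66899_g1_i1 and c30263_g2_i1 had L2H means of 164.9 and 173.3 at 24h, against 97.2 and 101.4 at 0h, and H2L means of 1158 and 549.97 at 24h, against 3608 and 2214 at 0h. They met the threshold mainly through H2L 0h and 4h, so these differences were in part fixed by the rule.

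Leaving out single libraries ended some of these calls. At 4h c39976_g1_i1 was lost without library 1 or 2 of H2L 0h, H2L 4h, L2H 0h or L2H 4h or without H2L 4h library 3 (adjusted p 0.0534 to 0.0908), and c39956_g1_i1 without any of the same 8 libraries 1 and 2 (0.0526 to 0.0794). c44752_g1_i1 was lost without these, H2L 4h library 3, H2L 24h library 2 or L2H 24h library 2 (0.0501 to 0.109). c30377_g2_i1 was lost without H2L 0h library 3 or library 1 or 2 of H2L 4h, L2H 0h or L2H 4h (0.0608 to 0.0849). At 24h c50236_g1_i5 was lost without library 1 or 2 of either 0h group or H2L 24h library 3 (0.0514 to 0.0713), c50377_g2_i1 without library 1 or 2 of either 0h group (0.0515 to 0.055), and c42358_g2_i1 without these, H2L 24h library 2 or L2H 24h library 3 (0.0524 to 0.0741). The calls of c48029_g1_i1 at both times, c50236_g1_i5 at 4h, and the c44730 pair at 24h were lost only when libraries 1 and 2 were averaged, which leaves 2 values per group.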

How the results depend on the processing

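The number of members called depended on the processing. Of 1860 values of single called members under the alternatives, 463 lost the call and 0 reversed. These members were chosen because they were called in the main fit, so the 0 does not show how stable directions are in general. The balance of higher and lower calls moved with quantile normalization, as given above for H2L 24h against 0h. In the order H2L 4h against 0h, 24h against 0h, 24h against 4h, the same 3 in L2H, the arms at 0h, and the arm difference at 4h and 24h, the counts were 6, 4, 11, 6, 2, 3, 14, 6 and 8. They were 1, 0, 3, 0, 0, 0, 2, 0 and 0 with libraries 1 and 2 averaged (2 to 8 members at an unadjusted p under 0.05 in limma where the count was 0), and 24, 89, 83, 67, 53, 55, 95, 47 and 67 with libraries 1 and 2 alone, whose rank orders are alike at a rho of 0.957 to 0.992. Without library 3 of L2H 0h and of L2H 4h, chosen after seeing the data, they were 20 and 28 for the later 2 in H2L, 34, 19 and 25 in L2H, 35, 32 and 32. With a minimum of 10 (fewer transcripts tested) they were 15 and 25 for the later 2 in H2L, 20, 5 and 8 in L2H, 24 for the arms and 15 for the difference at 24h. Fitting each comparison on its own groups gave 3 for H2L 4h, 0, 0 and 1 in L2H (14 and 12 unadjusted where 0), 4 for the arms and 2 for the difference at 4h. Quantile normalization gave 8 for H2L 24h against 0h and 0 for L2H 24h against 0h (18 unadjusted), upper-quartile scaling 6 for H2L 24h against 4h and 0 for L2H 24h against 0h (11 unadjusted), and scaling to the total of the other transcripts 1 for the same comparison. Without a trend L2H 4h gave 0 (33 unadjusted). A pseudocount of 0.1 or no filter gave 0 for L2H 24h against 0h (14 unadjusted) and 1 against 4h. With 1 library left out, the ranges were 3 to 6, 2 to 14, 5 to 18, 0 to 31, 0 to 9, 0 to 19, 5 to 28, 2 to 24 and 5 to 17. The share differences ranged from -0.523 to 1.52, -0.323 to 0.906, -4.92 to -2.16, -2.44 to -0.246 and -0.404 to 1.79 points, for H2L 4h and 24h, L2H 4h and 24h and the arms at 0h; those of H2L 4h (-0.523 and -0.000349), H2L 24h (-0.323) and the arms at 0h (-0.404, also without library 3 of L2H 0h and of L2H 4h) changed sign. The cause was not tested.

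With the replicate block the counts were 7 for H2L 24h against 0h, 0 for L2H 4h (34 members at an unadjusted p under 0.05 in limma), and 4 and 6 for L2H 24h against 0h and against 4h; the other counts stayed within 1.5 times. Deviations correlated best with the same number in every comparison within an arm except for H2L library 2 at 4h against 0h and all L2H libraries at 4h against 0h, and for none between the arms; the numbers are not treated as pairs. The unknown depth and 3 libraries per group limit what can be called.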
